A study of Homo sapiens with 12 samples.

Results

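The genes of oxidative phosphorylation were followed in HL-60 cells, a human promyelocytic leukaemia cell line, that were left untreated or exposed for 3 h to 100 nM all-trans retinoic acid (ATRA), to 500 nM of the CDK4/6 inhibitor palbociclib, or to both agents at these concentrations (combination). Each of the 4 groups held 3 RNA-seq libraries, numbered 1 to 3 in the labels, and all cells were grown in RPMI medium with fetal calf serum. Of the 58233 genes in the table, 114 had a symbol that began like a subunit of the respiratory chain or of ATP synthase and was not a pseudogene. They comprised 13 mitochondrially encoded genes, 81 nuclear genes for subunits, and 20 other nuclear genes, among them 8 complex I assembly factors. The values were RPKM, reads per kilobase of transcript scaled to library size, which the authors had rounded to whole numbers.

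The respiratory chain passes electrons from NADH and succinate to oxygen through complexes I to IV and pumps protons across the inner mitochondrial membrane, and ATP synthase, complex V, uses the resulting gradient to make ATP. Mitochondrial DNA codes for the hydrophobic core proteins of complexes I, III, IV and V, whereas complex II and all remaining subunits come from the nucleus, so that each mixed complex needs transcripts from both genomes. The mitochondrial genes are transcribed as long polycistronic RNAs that are cut into shorter RNAs, while the nuclear genes have separate promoters.

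The mitochondrial genes lay close together on the circular genome, which has 16569 bases in the hg38 assembly, and pairs of them shared bases. These overlaps are shown because a read from the shared stretch belongs to both genes, and the capitals mark it with 10 bases on either side.

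MT-ATP8 and MT-ATP6, chrM:8517-8582, plus strand: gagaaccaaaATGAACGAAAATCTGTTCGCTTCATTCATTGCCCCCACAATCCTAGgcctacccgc
MT-ND4L and MT-ND4, chrM:10750-10776, plus strand: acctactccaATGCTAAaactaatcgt

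The first overlap spanned 46 bases and covered 22.2% of MT-ATP8, the shorter of the 2 ATP synthase genes. The second spanned 7 bases, in which the stop codon of MT-ND4L and the start codon of MT-ND4 interlock. MT-ND6 was the only mitochondrial subunit gene annotated on the minus strand. The strand setting of the libraries is not given, so its values may include reads from the plus strand.

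The labelled cell type was checked by granule and progenitor genes. MPO, which codes for myeloperoxidase, ranged from 1077 to 1579 RPKM and PRTN3, which codes for proteinase 3, from 195 to 310 RPKM, whereas ELANE, which codes for neutrophil elastase, was listed at 0 or 1. CD14, CD3E, HBB and PPBP were at 0 in every library, and NKG7 lay between 5 and 10 RPKM. The treated libraries numbered 1 stood apart from the rest. In them, genes of the lowest quartile of exonic length lay 0.242 to 0.274 above those of the highest on the log2 scale, relative to each gene's mean over the 12 libraries, against -0.145 to -0.0156 in the other 9. The nuclear subunit genes tested were short, with a median exonic length of 2475 bases against 4305 for all genes tested, so medians and counts at an adjusted p under 0.05 are also given without the 4 libraries numbered 1 for the comparisons with untreated cells.

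Transcripts of the 13 mitochondrial genes dominated the module and were among the most abundant of the whole table. In untreated cells their values summed to 76105, 76251 and 68651 RPKM, against 5402, 5518 and 5641 RPKM for the nuclear subunits. Over the 12 libraries the mitochondrial sum took 18.6% to 23.5% of all RPKM and the nuclear sum 1.46% to 1.68%. RPKM divides by length, and with values weighted by annotated exonic length the 13 mitochondrial genes took 5.24% to 7.04%. The mitochondrial sum exceeded the nuclear sum by 11.6 to 16.0 times. In bulk RNA a change in the number of cells and a change in RNA per cell cannot be told apart.

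The cytochrome c oxidase messages led the order of levels per length. MT-CO3 averaged 12660 ± 219 RPKM in untreated cells (SD, n = 3) and MT-CO2 11376 ± 284. MT-ND4 of complex I followed at 8993 ± 1260, MT-ATP6 of ATP synthase at 8287 ± 717 and MT-CO1, the catalytic subunit of complex IV, at 7548 ± 331. MT-CO2 and MT-ND4 did not overlap in the untreated libraries, but MT-ND4 and MT-ATP6, and MT-ATP6 and MT-CO1, did. A gap followed, since MT-CO1 lay above MT-ND4L in all 12 libraries with no overlap. MT-ND4L averaged 4521 ± 533 RPKM, MT-ND2 3883 ± 292, MT-CYB of complex III 3442 ± 69.2 and MT-ND1 3097 ± 336. The lowest were MT-ND3 at 2872 ± 178, MT-ND5 at 2488 ± 394, MT-ATP8 at 2423 ± 287 and MT-ND6 at 2081 ± 280, and each neighbouring pair from MT-ND1 down overlapped.

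**Figure D1:**
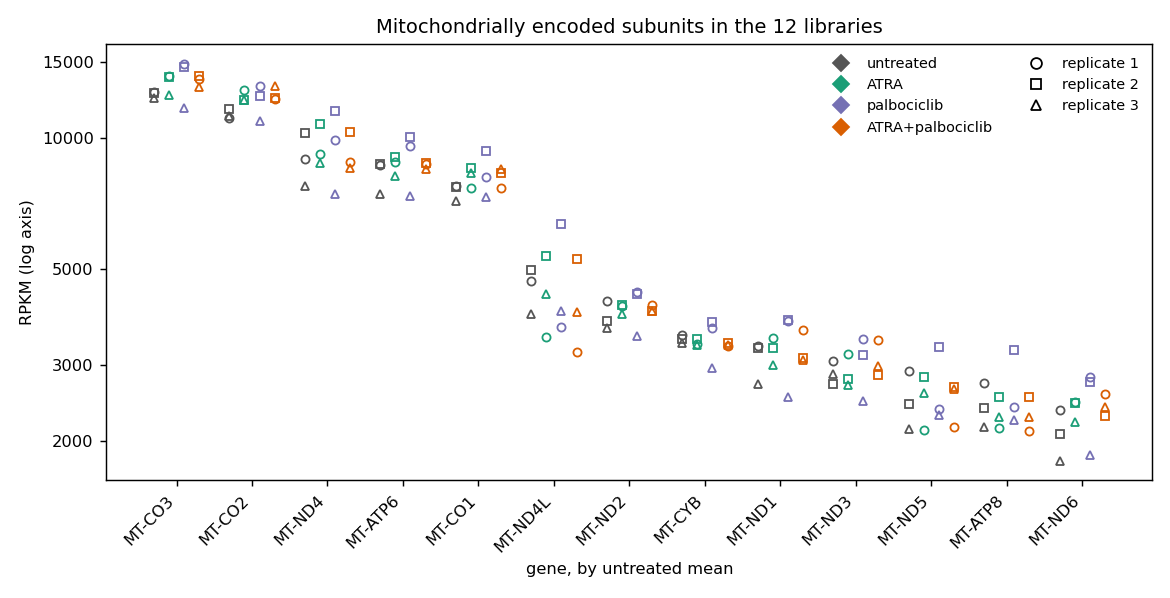
RPKM of the 13 mitochondrially encoded subunit genes (x axis, by untreated mean) on a log axis, with colours for the 4 groups and symbols for the replicates. MT-CO3 lies between 11754 and 14872 RPKM and MT-ND6 between 1802 and 2808, and the colours interleave for most genes.

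The nuclear subunits were lower and spanned a wider range as a ratio of highest to lowest. Among the 71 tested, untreated means ran from 4.67 RPKM for NDUFA11, an accessory subunit of complex I, to 732 RPKM for ATP5B, the catalytic beta subunit of ATP synthase, with a median of 53 RPKM. By complex, the medians were 30.7 RPKM for the 33 subunits of complex I, 43.2 for the 4 of complex II, 51.5 for the 8 of complex III, 104 for the 11 of complex IV and 59.3 for the 15 of complex V. These levels are descriptive, and the ranges of the complexes overlapped.

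Complex I ranged up to NDUFS5 at 352 RPKM, which codes for an accessory subunit. Complex II, succinate dehydrogenase, ranged from SDHC, a membrane anchor, at 9.33 RPKM to SDHB, the iron-sulfur subunit, at 80.3. In complex III, UQCR11 averaged 16 RPKM and UQCRH, the hinge protein beside cytochrome c1, 275. In complex IV, COX4I1 averaged 42 RPKM and COX8A 276. In complex V, ATP5E, the epsilon subunit, averaged 16 RPKM against 732 for ATP5B. The assembled enzyme holds more copies of beta than of epsilon, and any part of this in the RNA levels was not tested. RPKM divides by length, and annotated exonic lengths were 5081 bases for ATP5E and 2238 for ATP5B. They were 4816 for COX4I1 and 494 for COX8A, and 4839 for NDUFA11 and 548 for NDUFS5. In complex II the lower gene was the shorter, with 1902 for SDHC and 2445 for SDHB. The part of length in these levels was not tested.

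**Figure D2:**
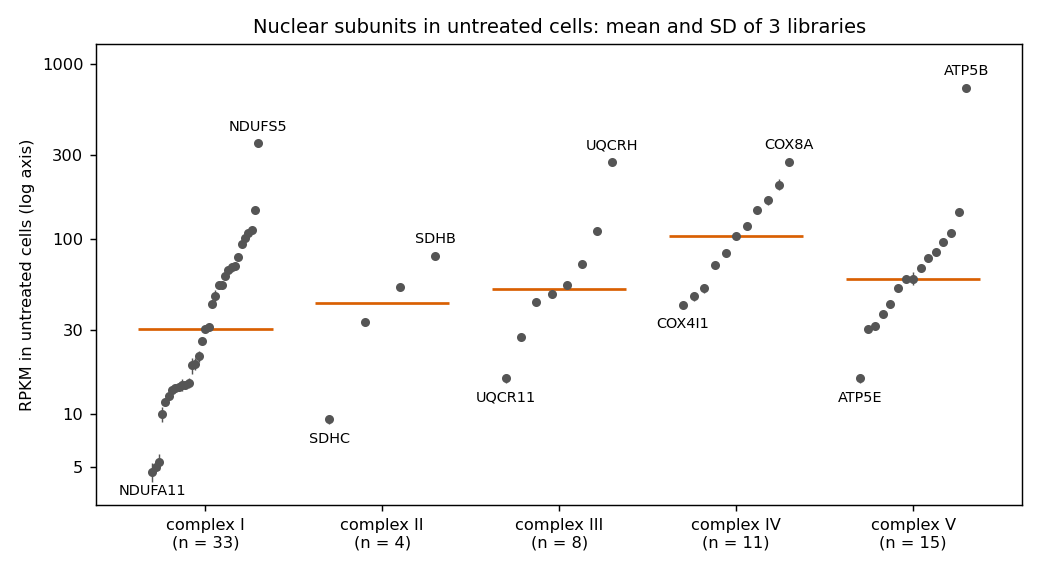
Untreated mean RPKM with SD (n = 3 libraries) of each nuclear subunit tested, by complex, on a log axis, with the complex median as a line and the lowest and highest gene named. Complex IV has the highest median, 104 RPKM, and complex I the widest range as a ratio, 4.67 to 352 RPKM.

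Of the 114 members, 20 did not reach 5 RPKM in 3 libraries and were not tested. Of these, 12 were listed at 0 in every library. They included COX4I2, COX6A2, COX6B2, COX7A1, COX7B2 and COX8C, isoforms of complex IV subunits that are known from muscle, lung or testis. NDUFV2, a core iron-sulfur subunit, and NDUFA7 were also listed at 0, although complex I is not complete without NDUFV2. Exons of other annotated genes on the same strand overlapped 28.4% of the exonic bases of NDUFV2 and 32.5% of those of NDUFA7. The same overlap was 35.4% for COX8A, at 276 RPKM in untreated cells, and 33.8% for NDUFB8, at 16 RPKM after ATRA. The default counting mode leaves out reads that fall on more than 1 gene, and the part of this in the zeros was not tested. NDUFB2-AS1, ATP5J2-PTCD1, NDUFC2-KCTD14 and a second row of SDHD were the others at 0, with such overlaps of 0%, 87.9%, 99.6% and 100%. NDUFA9 stood at 3 RPKM in every library and NDUFS7, another core subunit, at 3 or 4.

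After 3 h of ATRA, most fitted differences of the members were small and above 0. At an adjusted p under 0.001, limma called 0 of 94 members against 4.72% of the 7820 genes tested. An unadjusted p under 0.05 was found for 5 members, against 2586 of the 7820 genes. At an adjusted p under 0.05 limma called 1 member, against 20.3% of all genes (8.71% higher and 11.6% lower). That count was 0 without ATRA replicate 2, against 13.7% of all genes, and 3 without palbociclib replicate 1, against 22.5%. It was 5 with a replicate block, against 35.4% of all genes in that fit, and 15 with block and length correction, against 38.3%. UQCRC1 and COX8A, described with the combination, were higher without overlap but did not pass (log2 0.18, adjusted p = 0.0863, and log2 0.20, adjusted p = 0.0866).

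The median log2 difference after ATRA was 0.07 for the 13 mitochondrial genes and 0.08 for the 71 nuclear subunits, against -0.01 for all genes. All 11 nuclear subunits of complex IV and all 15 of complex V lay above 0, with medians of 0.13 and 0.06, whereas complex II had a median of 0.01. Cytosolic ribosomal protein genes, a further set of short and abundant transcripts, had a median of 0.11, with 72 of 77 above 0, and mitochondrial ribosomal protein genes one of -0.02. Without the libraries numbered 1 the median of the nuclear subunits was -0.02 and that of the mitochondrial genes 0.10. The medians of nuclear complexes IV and V were then 0.01 and -0.03. The count at an adjusted p under 0.05 was then 4 against 25.3% of all genes, and included NDUFAF4 and NDUFAF2, assembly factors of complex I, and SDHD, a membrane anchor of complex II, which were lower.

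The largest fitted differences of nuclear subunits after ATRA did not pass the test. NDUFA2 rested on 18, 19 and 21 RPKM in untreated cells and 26, 24 and 20 after ATRA, and the groups overlapped (log2 0.26, adjusted p = 0.155). NDUFA13 had a log2 difference of 0.245, NDUFA5 one of -0.15 and NDUFV3 one of -0.19, all 3 from levels near 5 or 10 RPKM, where rounding to whole numbers is coarse. These 4 are accessory subunits of complex I.

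Palbociclib alone gave no call among the members. limma called 0 of 94 members at 0.001, against 0.499% of all genes, and 0 at 0.05, against 4.07%. An unadjusted p under 0.05 was found for 1 member, against 1359 of the 7820 genes tested. The highest fitted subunits were ATP5E, at 18.3 against 16 RPKM (log2 0.19), and NDUFA11, at 5.33 against 4.67 (log2 0.19). The lowest were NDUFB6, an accessory subunit of complex I, at 28.3 against 30.7 (log2 -0.11), and NDUFA5 (log2 -0.10). The median was 0.10 for the mitochondrial genes and 0.06 for the nuclear subunits, against 0 for all genes. Without the libraries numbered 1 these medians were 0.07 and -0.01.

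The combination was compared with the same untreated libraries, so its values are not independent of those for the single agents. At 0.001, 0 of 94 members were called, against 8.04% of all genes. An unadjusted p under 0.05 was found for 12 members, against 3165 of the 7820 genes tested. At 0.05 limma called 3 members and 0 lower, against 30.4% of all genes, 12.7% higher and 17.7% lower. UQCRC1 of complex III and COX8A of complex IV were among the 3, both higher. The count was 1 without combination replicate 2, untreated replicate 1 or untreated replicate 2, against 23.9%, 22.4% and 24.9% of all genes. It was 6 without ATRA replicate 1, against 31.6%. It was 7 with scaling outside the mitochondrial genome, 11 with length correction, 15 with a replicate block and 29 with block and length correction, against 30.6%, 32.6%, 45.2% and 48.6% of all genes.

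UQCRC1 (ENSG00000010256, chr3:48599002-48610976, minus strand) codes for a core protein of complex III. It rose from 70, 72 and 74 RPKM to 87, 85 and 80 with the combination, without overlap (log2 0.22, SE 0.068, adjusted p = 0.0306). After ATRA alone the values were 86, 81 and 78, and after palbociclib 84, 75 and 71. The call was lost when 1 of 4 libraries was left out, with adjusted p of 0.0824 and 0.0819 without combination replicates 1 and 2, and of 0.0971 and 0.0716 without untreated replicates 1 and 2. Without all libraries numbered 1 it held (log2 0.18, adjusted p = 0.0412).

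COX8A (ENSG00000176340, chr11:63974620-63976543, plus strand) codes for a small membrane subunit of complex IV. It rose from 271, 283 and 275 RPKM to 339, 323 and 309 with the combination, without overlap (log2 0.23, SE 0.0747, adjusted p = 0.041). ATRA alone gave 346, 309 and 298, and palbociclib 306, 266 and 264, so the libraries with ATRA were high and 2 of the 3 with palbociclib were below every untreated library. The call was lost without combination replicate 1 (adjusted p = 0.112), 2 (0.0909) or 3 (0.0511), without untreated replicate 1 (0.113), 2 (0.0693) or 3 (0.0934), and without ATRA replicate 2 (0.0554). It held without all libraries numbered 1 (log2 0.18, adjusted p = 0.0151).

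NDUFAF4 (ENSG00000123545, chr6:96889315-96897891, minus strand), an assembly factor of complex I, was the lowest member in this comparison and was chosen after its values were seen. It stood at 25, 25 and 28 RPKM in untreated cells, 25, 19 and 19 after ATRA, 29, 24 and 24 after palbociclib and 25, 18 and 18 with the combination. The libraries numbered 1 were high in every treated group, and the groups overlapped only through them. The log2 difference was -0.37 (SE 0.147, adjusted p = 0.0834) for the combination and -0.32 (adjusted p = 0.16) for ATRA. Without the libraries numbered 1 the differences were -0.55 (adjusted p = 0.00225) and -0.48 (adjusted p = 0.00448). Leaving out combination replicate 1 alone gave -0.53 (adjusted p = 0.0137).

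**Figure D3:**
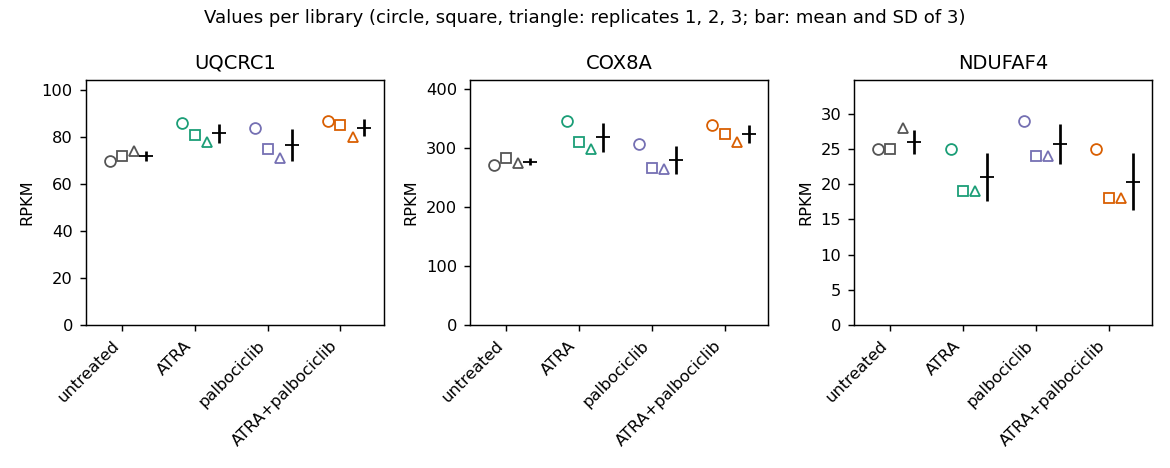
RPKM of UQCRC1, COX8A and NDUFAF4 in each library (circle, square and triangle for replicates 1, 2 and 3), with the group mean and SD as a bar; axes start at 0. UQCRC1 lies at 70 to 74 in untreated cells and 80 to 87 with the combination, and in NDUFAF4 the circles of the treated groups lie above their squares and triangles.

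RefSeq promoter windows (GRCh38.p14, from 250 bases before to 50 after the gene start) were found for 66 of the 81 nuclear subunits. They are shown for the genes just described, with capitals for a motif of NRF1 (GCGCA, any base, then GCGC), of ETS factors such as GABPA (CCGGAAG) or of YY1 (AAGATGGCG) on either strand, since these factors are known to act on respiratory chain genes.

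UQCRC1, chr3:48609597-48609896, minus strand: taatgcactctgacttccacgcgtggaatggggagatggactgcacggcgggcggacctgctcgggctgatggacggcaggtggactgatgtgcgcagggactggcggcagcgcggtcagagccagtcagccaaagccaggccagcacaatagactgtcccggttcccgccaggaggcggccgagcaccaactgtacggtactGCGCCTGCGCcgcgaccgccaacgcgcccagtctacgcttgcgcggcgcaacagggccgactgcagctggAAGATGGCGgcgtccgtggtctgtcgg
COX8A, chr11:63974370-63974669, plus strand: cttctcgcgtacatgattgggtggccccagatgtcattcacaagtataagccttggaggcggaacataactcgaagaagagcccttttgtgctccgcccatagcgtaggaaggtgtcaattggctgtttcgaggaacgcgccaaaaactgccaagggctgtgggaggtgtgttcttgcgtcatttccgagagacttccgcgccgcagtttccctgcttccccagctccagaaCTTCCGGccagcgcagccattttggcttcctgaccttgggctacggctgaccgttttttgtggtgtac
NDUFAF4, chr6:96897842-96898141, minus strand: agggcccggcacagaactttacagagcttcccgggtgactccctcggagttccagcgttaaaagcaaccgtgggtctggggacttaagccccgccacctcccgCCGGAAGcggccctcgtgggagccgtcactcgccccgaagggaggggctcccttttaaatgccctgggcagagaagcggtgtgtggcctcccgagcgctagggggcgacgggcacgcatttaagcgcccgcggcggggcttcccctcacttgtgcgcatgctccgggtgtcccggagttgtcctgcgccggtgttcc

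UQCRC1 held 1 NRF1 and 1 YY1 motif, COX8A 1 ETS motif and NDUFAF4 1 ETS motif. The UQCRC1 window follows the RefSeq gene start and lies inside the gene coordinates given above, which came from GENCODE. For this gene the annotations place the start differently. Of the 66 subunit promoters, 16 held the NRF1 motif (24.2%, against 6.28% of 27305 promoters of the same length), 19 the ETS motif (28.8% against 10.7%) and 8 the YY1 motif (12.1% against 1.85%). In all, 36 of the 66 held at least 1 of these motifs. The letters describe the sequence and say nothing of whether a factor was bound.

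The fitted differences of the combination from untreated cells had a median of 0.07 for the mitochondrial genes, 0.10 for the nuclear subunits and -0.01 for all genes. By complex the nuclear medians were 0.10 for complex I, 0.04 for complex II, 0.11 for complex III, 0.17 for complex IV and 0.10 for complex V. All 26 tested nuclear subunits of complexes IV and V lay above 0, and 2 of the 4 of complex II did. The highest were NDUFA11, at 6 against 4.67 RPKM (log2 0.35, adjusted p = 0.0909), and NDUFA2, at 24.7 against 19.3 (log2 0.34, adjusted p = 0.0532). The lowest were NDUFS1, the largest core subunit of complex I, at 13.3 against 14.3 (log2 -0.11), and NDUFA5 (log2 -0.10). Without the libraries numbered 1 the median of the nuclear subunits was 0.01 and that of the mitochondrial genes 0.10. The medians of nuclear complexes IV and V were then 0.10 and 0.02. The count at 0.05 was then 5 against 33.3% of all genes, and included COX8A and UQCRC1, which were higher, and NDUFAF4 and SDHD, which were lower.

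**Figure D4:**
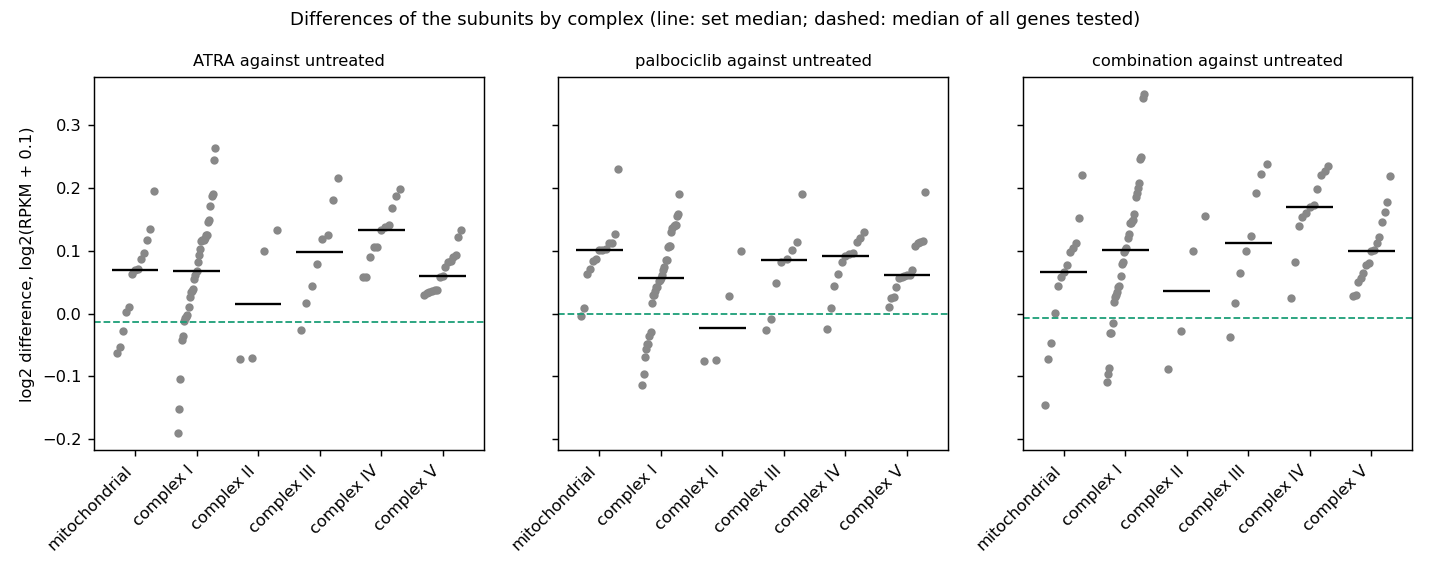
Fitted log2 difference from untreated cells (y axis) of each subunit tested, for the 13 mitochondrial genes and for the nuclear subunits of each complex (x axis), with set medians as lines and the median of all genes dashed. Most points lie above 0 in all 3 comparisons, and the median of nuclear complex IV is the highest after ATRA and with the combination, at 0.13 and 0.17. Without the libraries numbered 1, which are included here, these medians were 0.01 and 0.10.

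The mitochondrial genes gave no call in any comparison. MT-CO2 measured 11154, 11696 and 11277 RPKM in untreated cells, 12928, 12250 and 12296 after ATRA, 13213, 12541 and 10997 after palbociclib and 12338, 12410 and 13208 with the combination. The ATRA and combination libraries lay above all untreated ones, while palbociclib overlapped. The log2 differences were 0.14 (95% interval -0.05 to 0.32, adjusted p = 0.3) for ATRA and 0.15 (-0.03 to 0.34, adjusted p = 0.198) for the combination.

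MT-CO3 measured 12804, 12767 and 12408 RPKM in untreated cells and 13737, 13925 and 13178 with the combination, again without overlap (log2 0.10, adjusted p = 0.464). MT-CYB measured 3508, 3447 and 3370 RPKM against 3306, 3364 and 3326, lower without overlap by a log2 difference of -0.05 (adjusted p = 0.72). Over all 94 members, groups did not overlap for 5 higher after ATRA, for 6 higher and 1 lower after palbociclib, and for 19 higher and 1 lower with the combination. The shares over all genes were 12.4% higher and 17.3% lower, 5.74% and 9.48%, and 15.3% and 20.6%. After ATRA, 0 members were lower without overlap.

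The intervals bound what could be seen. The 95% interval of a treatment difference reached 0.185 on the log2 scale to either side for MT-CO2, the narrowest, and 0.531 for MT-ND4L, the widest. The median residual SD was 0.162 for mitochondrial genes, 0.13 for nuclear subunits and 0.134 for all genes. The mitochondrial sum was 73669 ± 4346 RPKM in untreated cells, 77571 ± 3419 after ATRA, 79300.3 ± 11372 after palbociclib and 77378 ± 2128 with the combination (SD, n = 3), and these spreads overlapped. Palbociclib contributed the most variable group, in which all 13 genes lay above their 12-library mean in replicate 2 and all 13 below it in replicate 3. Untreated replicate 3 also had all 13 below the mean.

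Ratios between neighbouring mitochondrial genes differed by library number. They compare RPKM of annotated genes and not of separate messages. The strand limit given above for MT-ND6 holds for its ratio too. MT-ND4L and MT-ATP8 have 297 and 207 exonic bases, against 1378 for MT-ND4 and 681 for MT-ATP6. MT-ND4L over MT-ND4, neighbours in 1 transcript unit, was 0.522, 0.483 and 0.507 in untreated cells. In the treated libraries numbered 1 it was 0.379 with ATRA, 0.368 with palbociclib and 0.364 with the combination. The other 6 treated libraries lay between 0.465 and 0.549, with no overlap. MT-ND6 over MT-ND5 was 1.16, 1.19 and 1.19 in the same 3 libraries and 0.808 to 0.908 in the other 9. MT-ATP8 over MT-ATP6 was 0.242 to 0.249 in those 3 and at least 0.267 elsewhere. The nuclear subunits were high in the same libraries, with 69, 65 and 69 of 71 above their own mean after ATRA, palbociclib and the combination. The part of library preparation in these values was not tested.

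**Figure D5:**
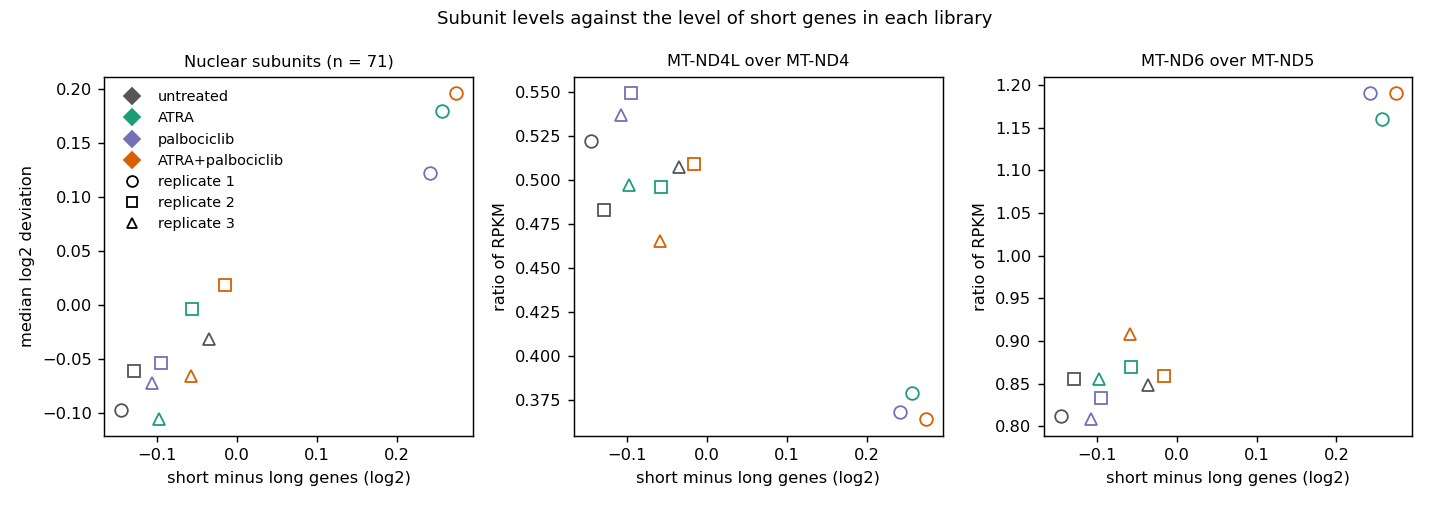
Each library's median log2 deviation of the 71 nuclear subunits (left), MT-ND4L over MT-ND4 (middle) and MT-ND6 over MT-ND5 (right), against the log2 difference between the lowest and highest quartile of exonic length in that library. The 3 treated libraries numbered 1 lie at 0.242 to 0.274 on the x axis, apart from the other 9 in all 3 panels.

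The combination was then set against each single agent. Against ATRA, limma called 0 of 94 members at 0.001 and 0 at 0.05, against 0% and 0.115% of all genes. An unadjusted p under 0.05 was found for 0 members, against 287 of the 7820 genes tested. The medians were -0.004 for the mitochondrial genes and 0.03 for the nuclear subunits. NDUFA11 (log2 0.16) and NDUFC2 (0.155), both accessory subunits of complex I, were highest, and NDUFA13 (-0.09) and COX5A (-0.03), a subunit of complex IV, lowest.

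Against palbociclib limma called 0 members at 0.001 and 0 at 0.05, against 3.11% and 12.5% of all genes. An unadjusted p under 0.05 was found for 4 members, against 1858 of the 7820 genes tested. Same-numbered libraries of the treated groups deviated together, and a fit blocked on that number called 4 members at 0.05, against 23.5% of all genes. Among these were COX8A (log2 0.22, adjusted p = 0.0185), NDUFB1, an accessory subunit of complex I (log2 0.28, adjusted p = 0.0173), and NDUFAF4 (log2 -0.35, adjusted p = 0.0443). Without the libraries numbered 1 the count was also 4, with the same genes, against 18.8% of all genes. NDUFB1 measured 14, 13 and 13 RPKM after palbociclib and 19, 15 and 15 with the combination, without overlap. The lowest subunits were NDUFV3 (log2 -0.17) and NDUFA12 (-0.095), accessory subunits of complex I, and neither passed. The median of the mitochondrial genes was -0.02, and -0.18 without palbociclib replicate 3.

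Departure from additivity, the combination minus the sum of both single differences on the log2 scale, gave 0 calls among the 94 members at 0.001 and at 0.05, and 0% of all genes at both limits. No member had an unadjusted p under 0.05, against 236 of the 7820 genes tested. The medians were -0.09 for the mitochondrial genes and -0.03 for the nuclear subunits. The extremes of the latter were NDUFC2 (0.20) and NDUFB6 (0.16) above, and NDUFA13 (-0.17) and UQCR11 (-0.17) below.

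Genes that serve the module but fall outside the naming rule were counted by list. Of 24 genes for mitochondrial DNA maintenance, transcription and RNA processing, 7 passed 0.05 after ATRA and 8 with the combination, all lower, against 11.6% and 17.7% of all genes. FASTKD3, of a family of mitochondrial RNA-binding proteins, fell from 23.3 ± 0.577 to 16.3 ± 0.577 RPKM after ATRA (log2 -0.51, adjusted p = 0.000261) and to 15 ± 1 with the combination (SD, n = 3). TFAM, which packages mitochondrial DNA and starts its transcription, fell from 29 ± 1 to 24 ± 1 after ATRA, 23.7 ± 0.577 after palbociclib and 23 ± 1 with the combination (log2 -0.33, adjusted p = 0.00103). POLRMT, the mitochondrial RNA polymerase, fell from 16.7 ± 0.577 to 13.7 ± 1.15 after ATRA and stood at 16.7 ± 0.577 after palbociclib. After palbociclib alone 2 of the 24 passed, TFAM and FASTKD3, both lower, against 3.16% of all genes lower. Without the libraries numbered 1 the counts were 9 lower after ATRA, 1 lower after palbociclib, and 11 lower and 1 higher with the combination, against 25.3%, 6.45% and 33.3% of all genes called in either direction.

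Among nuclear regulators of mitochondrial biogenesis, 5 of 8 were tested, and 3 passed 0.05 after ATRA and 3 with the combination, all lower, against 11.6% and 17.7% of all genes. These counts were 2 and 3, all lower, without the libraries numbered 1, against 25.3% and 33.3% of all genes called in either direction. PPRC1, a coactivator of the PGC-1 family, fell from 22.3 ± 1.15 to 14.7 ± 2.08 RPKM after ATRA and 13.3 ± 1.53 with the combination (log2 -0.745, adjusted p = 0.000429). YY1 fell from 19.3 ± 1.53 to 16.7 ± 0.577 and 15.3 ± 0.577. NRF1 itself was 7 RPKM in all 3 untreated libraries and 6 in all 9 treated ones, a step of 1 rounded unit.

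Assembly factors that the naming rule did not take went both ways. Of 28 tested, 2 were higher and 1 lower after ATRA, and 5 higher and 2 lower with the combination. All genes were called at 20.3% and 30.4%, so the 7 of 28 with the combination lie near that share. When the libraries numbered 1 were left out, there were 3 higher and 4 lower after ATRA, and 6 higher and 5 lower with the combination. All genes were then called at 25.3% and 33.3%, and these 28 at 25% and 39.3%. COA7, which assists the assembly of respiratory complexes, fell from 13.3 ± 0.577 to 7.33 ± 0.577 RPKM after ATRA (log2 -0.86, adjusted p = 4.73e-05) and to 6.67 ± 0.577 with the combination (log2 -0.99, adjusted p = 1.28e-05). SURF1, an assembly factor of complex IV, rose from 18 ± 1 to 23.7 ± 1.15 and 24.7 ± 1.15. Of the 13 genes of the tricarboxylic acid cycle, 3 were higher and 2 lower with the combination, against 12.7% and 17.7% of all genes, and IDH3A and FH were the lower ones. With the libraries numbered 1 left out, 2 were higher and 0 lower, against 33.3% of all genes called in either direction. The calls of IDH3A and FH were thus lost. Of 9 further chain proteins tested, 0 passed after ATRA, against 20.3% of all genes, and 2 with the combination, ETFDH and ATPIF1, both higher, against 12.7%. Both calls were lost without the libraries numbered 1. The counts were then 0 higher and 2 lower after ATRA, against 25.3% of all genes called in either direction. With the combination they were 0 higher and 1 lower, against 33.3%. Against ATRA the combination gave no call at 0.05 in any of these lists, and against palbociclib 6 of the 24 genes of mitochondrial gene expression were lower, against 6.64% of all genes.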

How the data were processed

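RNA was taken from HL-60 cells after 3 h and sequenced as polyA libraries with a TruSeq kit whose strand setting is not given in the sources used here. Per the labels and the methods, the authors used HISAT2 for alignment on hg38 and HTSeq, at its defaults, for gene counts, and deposited RPKM values rounded to whole numbers, which are treated here as a normalised score and not as counts. Read depth per library is unknown from these values, so no counting interval was given, and without strand, antisense or overlapping genes cannot be told apart. The study gives 3 independent experiments as its default for all data, and neither the labels nor the methods say more of what the replicates of these libraries share, so p-values measure the spread between these libraries.

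Groups came from the labels. limma 3.58.1 in R 4.3.3 was fitted with trend to log2(RPKM + 0.1) of all 12 libraries, for the 7820 genes with at least 5 RPKM in at least 3 libraries, with Benjamini-Hochberg adjustment within each comparison, calls at 0.001 and a second limit of 0.05. Fold changes are on this log2 scale, which understates those of low genes. The scripts were tested on simulated data. No count test was used because the values are not counts. Of 262 symbols with the prefixes, 147 ended as numbered pseudogenes and 1 more pseudogene was removed. Coordinates and exonic lengths came from GENCODE v44 on hg38, the build the authors used. Promoters came from RefSeq tables.

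Named genes were all mitochondrial members, members past 0.05, the 2 highest and 2 lowest nuclear subunits of each comparison, the extremes of each complex, and members at 0. NDUFAF4 and the members called without the libraries numbered 1 were added later. Individual results of some genes that met these rules are not reported here, while counts include them. The members and lists were chosen with earlier results of these data known. Alternatives were another pseudocount, filters, 2 scalings, a length correction, a replicate block, fits of the compared groups alone and leaving out libraries; leaving out all libraries numbered 1 was chosen after seeing the data. Same-numbered treated libraries deviated together from their group means (correlation 0.438 to 0.908), so the numbers were taken to pair the treated groups; with untreated libraries the correlation was 0.0453 to 0.367, and they were not.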

Additional observations from a re-analysis of the deposited data

How the results depend on the processing

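No called result reversed. Medians near 0, which carry no test, did change sign: without the libraries numbered 1 the nuclear subunits had -0.0191 for ATRA and -0.00529 for palbociclib against untreated cells. The numbers of members called at 0.05 as reported were 1 for ATRA, 0 for palbociclib and 3 for the combination against untreated cells, and 0 for the combination against palbociclib. At 0.001 these were 0, and with 0.05 as the limit 1 and 3 for ATRA and the combination. Each count below is followed by the share of all genes called at the same limit in that fit. Centring on the median of nuclear genes gave 0 (15.7%) for ATRA and 1 (24.9%) for the combination. Scaling outside the mitochondrial genome gave 2 (21.1%), 7 (30.6%) and, against palbociclib, 1 (12.3%). Length correction gave 2 (21.9%), 11 (32.6%) and 2 (13.2%), and leaving out the libraries numbered 1 gave 4 (25.3%), 5 (33.3%) and 4 (18.8%). Fitting the 2 groups alone gave 2 (18.2%) for ATRA; for additivity this fit is the one reported. A filter of 1 RPKM gave 1 (2.78%) for palbociclib, 1 (8.99%) for the combination against palbociclib and, at 0.001, 1 (5.42%) for the combination; no filter gave 1 (2.44%), 1 (8.09%) and 1 (4.88%).

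With a replicate block the counts at 0.05 were 5 (35.4%) for ATRA, 1 (13.6%) for palbociclib, 15 (45.2%) for the combination and 4 (23.5%) for the combination against palbociclib, and 1 (15.4%) for the combination at 0.001. With block and length correction they were 15 (38.3%), 1 (16.7%), 29 (48.6%) and 6 (26.5%), and 2 (19.8%). Untreated libraries share only a number with the treated ones.

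Leaving out single libraries gave 0 to 3 for ATRA, with 0 (13.7%) without ATRA replicate 2 and 3 (22.5%) without palbociclib replicate 1. For the combination it gave 1 to 6. The 1 came without combination replicate 2 (23.9%), untreated replicate 1 (22.4%) or untreated replicate 2 (24.9%), and the 6 (31.6%) without ATRA replicate 1. For the combination against palbociclib it gave 0 to 1, with 1 without combination replicate 1 (13.3%) or palbociclib replicate 1 (11.8%). The median of mitochondrial genes in that comparison ran from -0.176 to 0.0711. The causes were not tested. Rounding to whole RPKM limits genes under about 10 RPKM.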
